A study of Mus musculus with 3 samples.

Results

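The account concerns 37 genes of DNA replication and S phase, the part of the cell cycle in which the genome is copied. The genes were taken by name and not by their values, and all 37 were found in the deposited count table of 28692 gene IDs. By their known roles they fall into 6 groups. These are the 6 subunits of the MCM helicase (Mcm2 to Mcm7), 6 genes of origin licensing and firing, 8 genes of the replication fork and DNA synthesis, 3 genes of nucleotide supply, 6 genes of repair and checkpoint control, and 8 genes of chromatin and histone supply. Together they held 661576 unique molecular identifiers (UMIs, the tags that count single transcripts), or 0.306% of all UMIs.

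The cells were bone marrow progenitors of wild-type C57BL/6 mice. They are labelled modified GMP, and GMP is the common short form of granulocyte-monocyte progenitor. They were enriched with CD117 beads, sorted and profiled by CITE-seq, which counts transcripts and antibody tags in the same cells. A female and a male mRNA library served as 2 replicates. The sources used here give neither the age of the mice nor how many stand behind each library.

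The groups compared are built from the authors' cluster names, whose short forms no label spells out, and all groups share the same strain, with no treatment named. The Myelo class is Myelo-1 to Myelo-4 (991 female and 1295 male cells). The Gran class is Gran-1 and Gran-2 (1187 and 2139 cells). The monocytic class is Mono, MDP and cMoP (589 and 835 cells), and the early class is Multi-Lin with HSCP-1 and HSCP-2 (956 and 1366 cells). Meg, Eryth, DC, MP and IG2 belong to no class. No source used here states how the clusters were made. They may rest on the RNA of the same cells, these genes included, so the tests between them are read as a description of the clusters.

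Before a cell divides, the MCM helicase is loaded onto origins of replication with the help of Cdc6 and, at the start of S phase, is activated by Cdc45 and the GINS complex. At the fork, primase and the polymerases copy DNA on the sliding clamp Pcna, fed by ribonucleotide reductase (Rrm1 and Rrm2) and thymidylate synthase (Tyms), while new histones are delivered behind it. Many of these genes are known targets of E2F transcription factors, and in marrow, cell division of this kind accompanies the step from stem and progenitor cells to maturing myeloid cells, which later leave the cycle.

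The 2 libraries held 91448433 (female) and 124967351 (male) UMIs in 4336 and 6796 cells, with a median of 21202 and 18687 UMIs per cell. The lowest cell had 4373 UMIs. Of the 6 GMP markers, all had UMIs, with Mpo at 6181 and 6925 CPM (UMIs of a gene scaled to a common library total) and Kit at 34.8 and 31.8 CPM. Of the 4 T and NK markers, Nkg7, a granule protein of cytotoxic lymphocytes, stood at 856 and 995 CPM and was highest in Gran-2, while Cd3e was at 0 and Cd3d and Trbc2 were at 1.23 CPM or less. Of the 5 B-cell markers, Cd79b stood at 31.2 and 30.2 CPM, about the level of Kit, and the other 4 lay between 0.0219 and 2.27 CPM. Of the 2 plasma cell markers, Mzb1 was at 0.176 CPM or less, and Jchain stood at 0.0875 and 14.4 CPM. In the male library Jchain was highest in Gran-2, at 147 CPM, where the female library had 1 UMI of both markers together. The source of these Jchain transcripts was not tested. There were 45 cell barcodes in both libraries, and the results without those 90 cells are given with the other alternatives. A Pcna pseudogene, Pcna-ps2, has a row of its own with 288 female and 284 male UMIs, so reads of Pcna could be split with it.

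Across the 17 clusters the summed level of the 37 genes was highest in cMoP in the female library and in Meg in the male library. It was lowest in Myelo-4 in both. In cMoP it was 3639 CPM (female library) and 3624 CPM (male library), and in Multi-Lin 3537 and 3539 CPM. Meg stood at 3359 and 4346 CPM, so its place in the order differed between the libraries, and in the female library it lay just below IG2. Mono (3319 and 3440 CPM), IG2 (3366 and 3432 CPM), MDP (3303 and 3253 CPM) and MP (3196 and 3197 CPM) followed within a narrow range, and the order of these 4 clusters was not the same in both libraries. HSCP-2 had 2078 and 2810 CPM, with the male library well above the female one.

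From Gran-1 on, the granulocytic clusters held less. Gran-1 had 2927 and 3088 CPM, Gran-2 3056 and 3110 CPM, and these did not separate beyond the gap between libraries. Myelo-1 followed with 2743 and 2700 CPM, Myelo-2 with 2226 and 2165 CPM, Myelo-3 with 1472 and 1742 CPM and Myelo-4 with 486 and 410 CPM, each below the preceding cluster in both libraries. Median UMIs per cell moved with this order, from 23947.5 and 19945 in Myelo-1 to 5844 and 5057 in Myelo-4, and the share of high cells at an equal 4000 UMIs per cell, given further on, followed the same order. In such sums over cells, fewer cells in S phase and less of these transcripts per cell cannot be told apart.

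**Figure D1:**
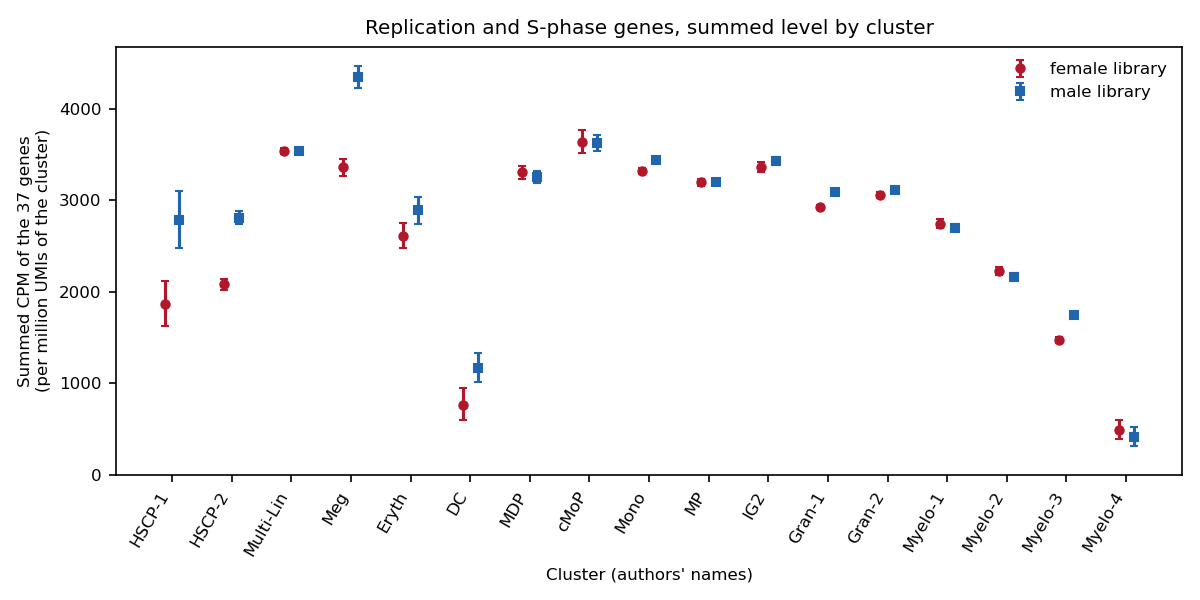
Summed level of the 37 genes in CPM (vertical axis) in each of the 17 clusters (horizontal axis), with a point for the female and for the male library and exact Poisson 95% intervals, which cover counting error only. The clusters from Multi-Lin to IG2 lie mostly above 3000 CPM, apart from Eryth and DC, and the level is lower from Myelo-1 to Myelo-4, where it is 486 and 410 CPM.

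In the genome the 37 genes are spread over many chromosomes and all are annotated as protein-coding in RefSeq. Rrm2 lies at chr12:24708254-24714146, Rrm1 at chr7:102441695-102469771, Ccne2 at chr4:11190433-11204779, Slbp at chr5:33640055-33652574 and Ung at chr5:114130366-114139321 (GRCm38.p6). The UMIs come from the 3' ends of transcripts and do not separate isoforms.

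Promoters were read because, in several of the comparisons described further on, the helicase genes moved together and Rrm2 moved apart from them. RefSeq windows of 250 bases before to 50 after an annotated start (GRCm38.p6, the mm10 build) existed for 27 of the 37 genes, in 30 windows. In 15 of these the start is the outermost annotated start of the gene, and in the other 15 it lies inside the gene, by up to 976 bases. The octamers TTTCCCGC, TTTCGCGC, TTTGCCGC and TTTGGCGC, searched on both strands and allowed to overlap, stand for E2F-type sites. At least 1 of them lay in 13 of the 30 windows (43.3%), against 2.26% of all 32851 windows and 4.92% of the windows of genes at 10 CPM or more in these cells. CCAAT, on either strand, lay in 21 of 30 windows (70.0%), against 37.4% and 38.2%. Of the 5 helicase genes with a window, 4 held an E2F-type match (Mcm3, Mcm5, Mcm6 and Mcm7) and Mcm2 held none. The 4 stretches listed here, each the 180 bases before the gene's outermost start on its own strand, show a helicase promoter with several E2F-type matches, a promoter with a single one (Dtl), and those of the ribonucleotide reductase subunits Rrm1 and Rrm2 without any. Capitals mark E2F-type and CCAAT matches, also where the match is to the opposite strand.
Mcm6, chr1:128359706-128359885, minus strand: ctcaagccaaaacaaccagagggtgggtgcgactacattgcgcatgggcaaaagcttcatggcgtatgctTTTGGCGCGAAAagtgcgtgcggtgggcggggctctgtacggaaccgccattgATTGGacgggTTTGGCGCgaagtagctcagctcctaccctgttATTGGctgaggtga
Dtl, chr1:191575545-191575724, minus strand: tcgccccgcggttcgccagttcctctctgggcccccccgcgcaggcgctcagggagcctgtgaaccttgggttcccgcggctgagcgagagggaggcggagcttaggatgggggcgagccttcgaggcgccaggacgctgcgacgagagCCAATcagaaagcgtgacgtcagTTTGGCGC
Rrm1, chr7:102441515-102441694, plus strand: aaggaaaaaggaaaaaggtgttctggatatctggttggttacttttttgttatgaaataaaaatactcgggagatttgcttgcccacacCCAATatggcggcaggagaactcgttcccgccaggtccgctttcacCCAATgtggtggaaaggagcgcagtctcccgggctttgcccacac
Rrm2, chr12:24708074-24708253, plus strand: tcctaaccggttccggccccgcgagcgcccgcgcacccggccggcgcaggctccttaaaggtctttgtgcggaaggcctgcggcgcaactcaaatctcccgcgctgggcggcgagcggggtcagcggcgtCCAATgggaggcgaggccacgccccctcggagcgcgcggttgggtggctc

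In Mcm6 the first run of capitals covers 2 matches of opposite strands that share bases, and a further match lies nearer the start. Rrm2, which rose in the Gran class over the early class, has a CCAAT match 50 bases before its start and no E2F-type match in its window, which says only that these letters are not in these bases. A match is a description of the sequence and not a measured binding site. The 4 stretches are examples, and matches did not divide the genes by direction. Of genes with a window called lower in the Myelo than the Gran class, Mcm3, Mcm5, Mcm6, Mcm7, Cdc6, Pola1 and Hells had an E2F-type match. Mcm2, Rpa2, Nasp, Ung, Fen1 and Chaf1b had none. Of those called higher, Clspn, Pold3 and Uhrf1 had a match, and Cdc45, Tyms, Rrm2, Rad51ap1 and Slbp had none. A link between match and direction was not tested. The genes Ung and Tyms had neither match, and no window was used for Ccne2.

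The 2 libraries are the only replicates, so values of both are given in place of a mean and SD. Class differences were tested on summed counts with edgeR's quasi-likelihood test and cluster differences in a fit over all 34 sums of a library and a cluster. A gene was called at a Benjamini-Hochberg adjusted p under 0.05 over all genes tested. Fold changes are on TMM-scaled counts, which correct for groups of very abundant genes, whereas CPM values are plain shares of UMIs. The scales can differ in sign, and where they did for called genes this is said.

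Multi-Lin cells carried more of nearly every gene than HSCP-2 cells. Of the 37 genes, 36 were higher in Multi-Lin and none was lower, with a median log2 fold change of 0.76. No member was lower at an unadjusted p under 0.05, and DESeq2 called 33 higher and 0 lower. Among all genes tested in this comparison 20% were called higher and 16.2% lower, and the median over all genes was 0.00. With RLE scaling the median of all genes shifted by -0.15 and with DESeq2 by -0.16, and the members' median relative to it was 0.76 under both. Ubr7, a chromatin-associated ubiquitin ligase, was the gene not called, at 21.2 and 20.9 scaled CPM in Multi-Lin and 19.3 and 21.9 scaled CPM in HSCP-2. On plain CPM, 34 of the 36 called genes were also higher in both libraries, and Dtl and Chaf1b were not.

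The nucleotide genes differed most in this step, with a group median log2 fold change of 1.06. Rrm2, the regulatory small subunit of ribonucleotide reductase, stood at 107 and 95.3 CPM in Multi-Lin against 36.7 and 55.5 CPM in HSCP-2. Its libraries did not overlap between the clusters, and it rose by 1.31 ± 0.14 (log2, SE, adjusted p = 2.92e-11). Tyms, which makes thymidylate, rose by 1.06 ± 0.09 (adjusted p = 4.63e-14) and Rrm1, the catalytic large subunit, by 1.03 ± 0.10 (adjusted p = 3.57e-12).

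All 6 helicase genes rose in Multi-Lin, with a median of 0.68. Mcm2 had 122 and 119 CPM in Multi-Lin and 65.3 and 83.2 CPM in HSCP-2, a rise of 0.88 ± 0.10 (adjusted p = 6.98e-11). Cdc45, which joins the helicase when an origin fires, rose by 1.08 ± 0.17 (adjusted p = 3.55e-07). Hells, a remodelling ATPase needed for DNA methylation, rose by 1.03 ± 0.13 (adjusted p = 6.83e-09). The smallest called rises were those of Dtl, a substrate receptor that marks Cdt1 for destruction, at 0.31 ± 0.10 (adjusted p = 0.0135), of Rfc2, a clamp loader subunit, at 0.33 ± 0.07 (adjusted p = 5.64e-05), and of Chaf1b, a histone chaperone subunit, at 0.33 ± 0.12 (adjusted p = 0.0303).

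In the female library alone all 37 genes were higher in Multi-Lin (median log2 ratio 0.98), and in the male library 36 were (median 0.51). Erythroid markers summed to 19.2 and 20.3 CPM in Multi-Lin and 182 and 121 CPM in HSCP-2, with 3 of 3 detected in both clusters, and the median UMI count per cell was 17137.5 and 13805 in Multi-Lin and 8298.5 and 7140.5 in HSCP-2. The part of the erythroid transcripts in the result was not tested. With every cell thinned to 4000 UMIs, 30 genes were called higher and 0 lower. Of 87 other replication genes tested, 54 were higher and 3 lower, among them the licensing factor Cdt1 (0.88) and the activating factor E2f1 (0.81). The G2/M list of 26 genes had 13 higher and 0 lower.

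Gran cells held more of some replication genes and less of others than early cells. The summed level was 2962 and 3093 CPM in the Gran class and 3291 and 3438 CPM in the early class, a ratio of 0.900 in both libraries. In the fit, 19 of the 37 genes were higher in the Gran class and 8 lower, where 32.5% of all genes tested were called higher and 34.2% lower. The median log2 fold change of the 37 genes was 0.11 and that of all genes -0.02. TMM scaling matters here: on plain CPM 9 of the 19 genes were higher in both libraries (Cdc45, Gins2, Gmnn, Ccne2, Rrm2, Rad51ap1, Tipin, Nasp and Atad2). The other 10 were lower there in both libraries (Mcm4, Mcm5, Cdc6, Pcna, Fen1, Rpa2, Usp1, Uhrf1, Hells and Slbp). All 8 lower genes were also lower on plain CPM. Of the 37 genes, 28 were lower and 9 higher in both libraries on that scale.

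The widest difference was in Rrm2. It had 206 and 214 CPM in the Gran class and 94.9 and 89.6 CPM in the early class, with no overlap, and rose 2.79-fold (log2 1.48 ± 0.04, adjusted p = 8.69e-14). Ccne2, the cyclin E2 that drives entry into S phase, had 20.8 and 21.4 CPM in the Gran class and 12.6 and 14.3 CPM in the early class and rose by 0.94 ± 0.08 (adjusted p = 5.09e-08). The other nucleotide genes were not called, Tyms at 0.04 ± 0.03 and Rrm1 at 0.07 ± 0.04. On plain CPM both were lower in the Gran class in both libraries. Rrm2 therefore changed unequally to its partner subunit within the same sums.

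Of the 6 licensing and firing genes 5 were higher and 1 lower in the Gran class. Cdc45 rose by 0.54 ± 0.05 (adjusted p = 2.53e-07), Gmnn, the inhibitor that blocks a second round of licensing, by 0.41 ± 0.04 (adjusted p = 8.50e-08), and Gins2, a GINS subunit, by 0.39 ± 0.05 (adjusted p = 3.68e-06). Atad2, a bromodomain ATPase, rose by 0.62 ± 0.05 (adjusted p = 7.32e-08), and Tipin, which stabilises forks with Timeless, by 0.44 ± 0.04 (adjusted p = 3.15e-08).

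The helicase genes did not move together between these classes on the scaled counts. Every helicase gene was lower in the Gran class on plain CPM, in both libraries. Their summed level was 658 and 664 CPM in the Gran class, against 839 and 876 CPM in the early class. Mcm6 had 148 and 151 CPM in the Gran class and 218 and 223 CPM in the early class and fell by 0.27 on the log2 scale (SE 0.03, adjusted p = 2.66e-06). Mcm3 and Mcm7 also fell (-0.19 ± 0.04 and -0.12 ± 0.04), Mcm4 and Mcm5 rose in the fit (0.14 ± 0.05 and 0.19 ± 0.04) but not on plain CPM, and Mcm2 was not called (-0.06 ± 0.04). In the fit over all 34 sums, which gives each cluster of a class the same weight, Mcm3 and Mcm7 were at 0.45 and 0.33, so their direction depends on how the clusters are weighted. Dscc1, a subunit of an alternative clamp loader, fell by 0.55 (SE 0.08, adjusted p = 2.25e-05), Chaf1b by 0.39 (SE 0.05, adjusted p = 3.34e-06) and Rfc2 by 0.28 (SE 0.03, adjusted p = 2.16e-06).

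With the clusters taken singly, Gran-1 against Multi-Lin gave 9 higher and 13 lower genes, against 26.5% and 28.3% of all genes, and Gran-2 against Gran-1 gave 9 higher and 1 lower, against 15.5% and 12.3%. With RLE scaling the counts were 7 higher and 17 lower for Gran-1 against Multi-Lin and 5 higher and 3 lower for Gran-2 against Gran-1. Of the 9 genes higher in Gran-1, 5 were so on plain CPM in both libraries (Cdc45, Ccne2, Rrm2, Rad51ap1 and Atad2), and all 9 genes higher in Gran-2 were. Rrm2 was called higher in both, by 1.13 ± 0.08 (adjusted p = 3.33e-19) and by 0.61 ± 0.07 (adjusted p = 5.10e-10). Its level was 107 and 95.3 CPM in Multi-Lin, 181 and 196 CPM in Gran-1 and 274 and 266 CPM in Gran-2. Slbp, the stem-loop binding protein that processes histone transcripts, rose in Gran-2 over Gran-1 by 0.48 ± 0.07 (adjusted p = 3.22e-08). Ung, the uracil DNA glycosylase that removes uracil from DNA, was the gene lower in Gran-2 (39.7 and 41.6 CPM, against 51.4 and 56.8 CPM in Gran-1), by -0.31 ± 0.09 (adjusted p = 0.00536). Of 87 other replication genes, 35 were higher and 14 lower in the Gran class against the early class, with the deoxyuridine triphosphatase Dut at 0.37 and the RNase H2 subunit Rnaseh2c at 0.91.

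**Figure D2:**
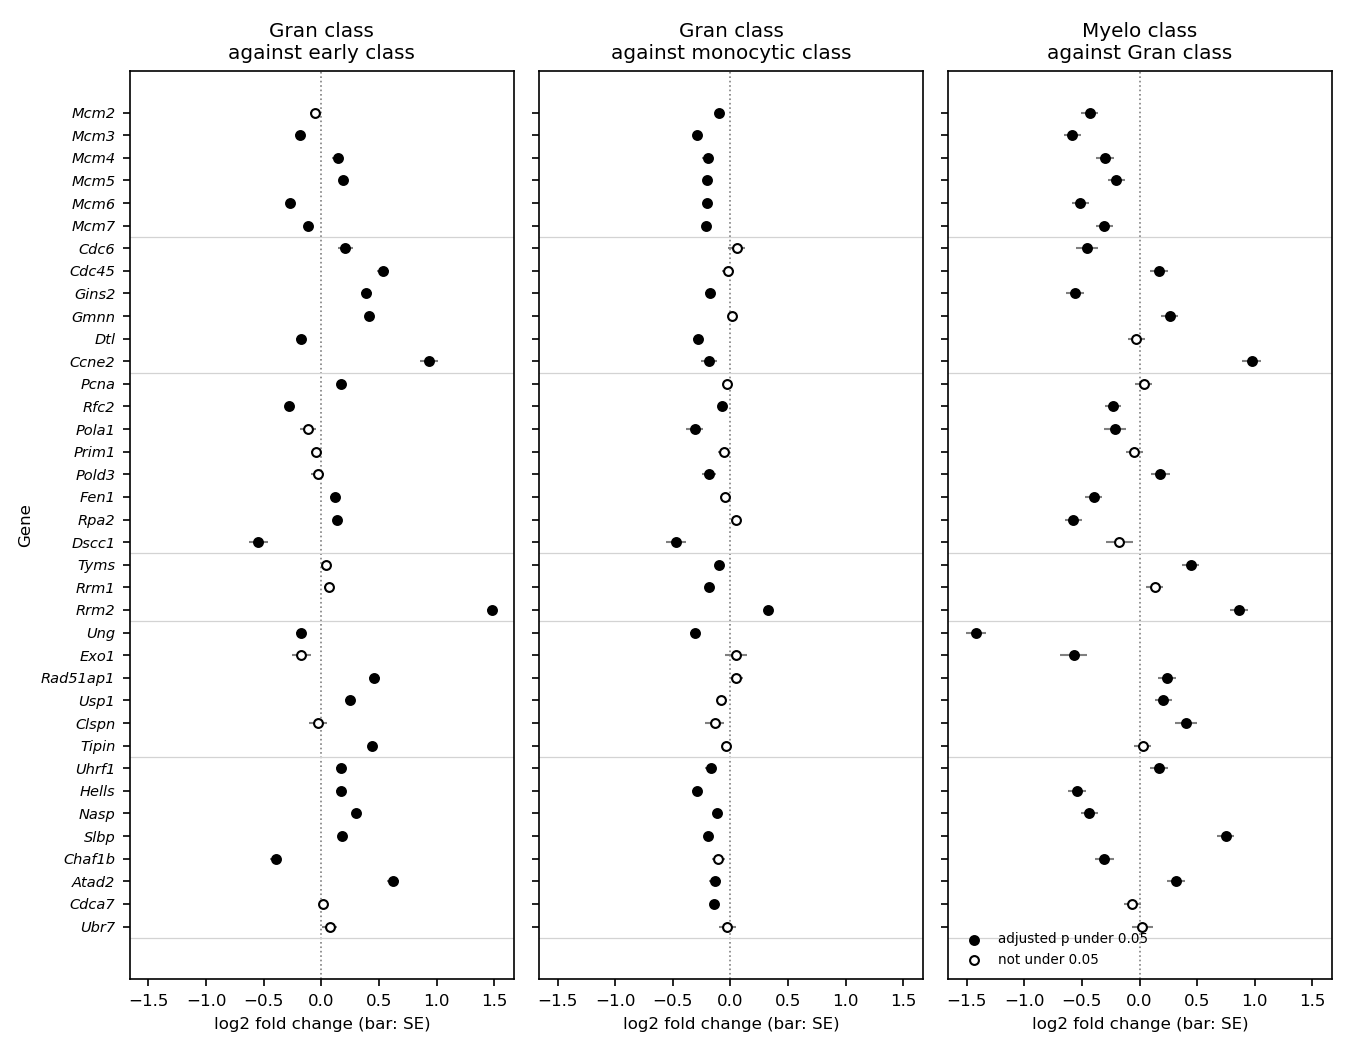
Log2 fold change on TMM-scaled counts (horizontal axes, one scale, bars are SE) of each of the 37 genes (rows, divided by role) for the Gran class against the early class, the Gran class against the monocytic class and the Myelo class against the Gran class, filled where the adjusted p was under 0.05. Rrm2 is the rightmost gene in the first panel at 1.48 and the only filled gene right of 0 in the middle panel, and in the third panel the 6 Mcm genes lie left of 0 while Rrm2, Ccne2 and Slbp lie right of it.

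Against the monocytic class the Gran class held slightly less of most genes and more of Rrm2. Of the 37 genes, 22 were lower in the Gran class and Rrm2 was higher, where 25.4% of all genes were called lower and 25.7% higher. The median log2 fold change was -0.14 over the 37 genes and 0.00 over all genes. The directions of all 23 calls were the same on plain CPM. The summed level was 2962 and 3093 CPM in the Gran class and 3334 and 3430 CPM in the monocytic class.

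Most of these differences were small. All 6 helicase genes were lower in the Gran class, by between -0.10 (Mcm2) and -0.29 (Mcm3, SE 0.03, adjusted p = 3.25e-10). Mcm5 had 134 and 135 CPM in the Gran class and 157 and 164 CPM in the monocytic class, without overlap. The largest fall was that of Dscc1, at 11.7 and 11.9 CPM in the Gran class and 17.7 and 16.7 CPM in the monocytic class (-0.48 ± 0.09, adjusted p = 1.03e-05). Ung fell by 0.30 (SE 0.04, adjusted p = 1.31e-07), Hells by 0.29 (SE 0.04, adjusted p = 2.65e-07) and Dtl by 0.28 (SE 0.04, adjusted p = 1.05e-06).

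Rrm2 had 206 and 214 CPM in the Gran class and 170 and 179 CPM in the monocytic class and rose by 0.32 ± 0.03 (adjusted p = 2.05e-13), while Rrm1 fell by 0.18 (SE 0.04, adjusted p = 3.86e-05). The difference in Rrm2 did not hold for every cluster. The monocytic cluster cMoP had 217 and 225 CPM of Rrm2, above the Gran class. Gran-1 (181 and 196 CPM) lay near Mono (181 and 186 CPM), while Gran-2 had 274 and 266 CPM and MDP 106 and 114 CPM. Without the library as a covariate 8 genes were called lower, with DESeq2 or with cells thinned to 4000 UMIs 9, and in the fit over 34 sums 11. Mcm3, Mcm5, Mcm6, Mcm7, Dtl, Dscc1, Ung and Rrm2 were called under each of these. Of 88 other replication genes 14 passed the test as higher and 41 as lower in the Gran class, while the 26 G2/M genes split into 5 and 12.

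The Myelo class held less of the helicase genes and of the 37 genes as a whole than the Gran class. In the fit 17 genes were lower and 12 higher in the Myelo class, with 32.5% of all genes called lower and 33.5% higher. The share of members called higher was thus close to that of all genes, and in the planned fit over 34 sums 0 members were higher. In the class fit the median log2 fold change was -0.06 over the 37 genes and -0.01 over all genes. As a plain share of UMIs the 37 genes fell to 2155 and 2251 CPM in the Myelo class, against 2962 and 3093 CPM in the Gran class, a ratio of 0.728 in both libraries. TMM scaling moved the log2 ratios of this comparison by 0.55 (female library) and 0.44 (male library) relative to plain CPM. On plain CPM 3 of the 12 higher genes were higher in both libraries, namely Rrm2, Ccne2 and Slbp, and all 17 lower genes were also lower.

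Rrm2 had 279 and 263 CPM in the Myelo class and 206 and 214 CPM in the Gran class, without overlap, and rose by 0.86 ± 0.07 (adjusted p = 1.35e-19). Ccne2 had 28.7 and 30.3 CPM in the Myelo class and 20.8 and 21.4 CPM in the Gran class and rose by 0.97 ± 0.08 (adjusted p = 1.14e-20). Slbp had 181 and 182 CPM in the Myelo class and 145 and 160 CPM in the Gran class and rose by 0.75 ± 0.07 (adjusted p = 1.07e-16). These 3 genes were higher on both scales in both libraries.

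For the other 9 genes called higher, the direction held on the scaled counts and not on plain CPM. Tyms, at 0.44 ± 0.07 (adjusted p = 3.47e-08), had 116 and 135 CPM in the Myelo class and 120 and 139 CPM in the Gran class. Clspn, the claspin adaptor of the replication checkpoint, was at 0.40 ± 0.09 (adjusted p = 0.000102), and Cdc45, Gmnn, Pold3, Rad51ap1, Usp1, Uhrf1 and Atad2 lay between 0.17 and 0.31.

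The helicase genes fell together. All 6 were lower in the Myelo class, with a median of -0.37. Mcm6 had 70.5 and 78.1 CPM in the Myelo class and 148 and 151 CPM in the Gran class and fell by 0.51 on the scaled log2 scale (SE 0.07, adjusted p = 5.75e-10). Mcm3 had 45.7 and 54.6 CPM in the Myelo class and 105 and 106 CPM in the Gran class and fell by 0.58 (SE 0.07, adjusted p = 1.64e-11). Gins2 (-0.56 ± 0.08) and the single-strand binding subunit Rpa2 (-0.57 ± 0.07) fell by about as much. So did Hells (-0.54 ± 0.08) and the nuclease gene Exo1 (-0.57 ± 0.12).

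Ung showed the widest fall of all 37 genes in this comparison. It had 10.4 and 16.5 CPM in the Myelo class and 48.2 and 53.1 CPM in the Gran class, and fell 2.68-fold on the scaled counts (log2 -1.42 ± 0.09, adjusted p = 7.17e-29). In Myelo-2 it reached 5.67 and 5.03 CPM, and in Myelo-3 3.29 and 13.1 CPM, where the libraries differed.

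The change began in part at Myelo-1. Against Gran-2, Myelo-1 had 3 higher genes (again Ccne2, Rrm2 and Slbp) and 10 lower, with 13.8% of all genes called higher and 13.9% lower. Ccne2 rose by 0.46 ± 0.12 (adjusted p = 0.00219), Rrm2 by 0.24 ± 0.08 (adjusted p = 0.0113) and Slbp by 0.22 ± 0.07 (adjusted p = 0.0153). Ung fell by 0.57 (SE 0.13, adjusted p = 0.000505), and Mcm2, Mcm3, Mcm6 and Mcm7 fell by between -0.23 and -0.30. With cells thinned to 4000 UMIs 1 gene was called lower in place of 10, and with RLE scaling 3 were higher and 6 lower.

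The class average hid differences among the Myelo clusters. With Myelo-2 as the whole class 15 genes were higher and 17 lower, with Myelo-1 7 and 10, and with Myelo-3 3 and 23. In the planned fit over 34 sums, which weights the 4 clusters equally, 0 genes were higher and 26 lower, and Rrm2 and Ccne2 were at -0.46 and -1.92. No member was higher there at an unadjusted p under 0.05. The same fit without Myelo-4, a cluster of 59 cells, gave 10 higher and 20 lower genes. The rises are thus those of the sums over cells, in which Myelo-4 has little weight.

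Myelo-4 held few of these transcripts at all. Its 59 cells carried 157 UMIs of the 37 genes, and 22 genes had 3 UMIs or fewer over both libraries. Against Myelo-1, 27 genes were lower and 0 higher, where 11.5% of all genes were called lower and 4.58% higher. The median log2 fold change was -2.38 over the 37 genes and -0.97 over all genes, so that relative to all genes it was -1.41. RLE scaling shifted the median of all genes by 0.55 and left the relative median at -1.41, whereas DESeq2 shifted it by 1.11, which put the relative median at -1.98. No member was higher at an unadjusted p under 0.05, and DESeq2 called 14 lower and 0 higher. Ccne2 and Exo1 had no UMI in Myelo-4, and with these 2 set to what 3 counts over both libraries allow, the median was -2.33. On that floor Ccne2 was at least 3.22-fold lower in Myelo-4, and no fold is given for Exo1.

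Rrm2 had 20.9 and 0 CPM in Myelo-4, against 308 and 274 CPM in Myelo-1, and fell by 4.45 (SE 0.52, adjusted p = 8.74e-10). Pcna fell by 2.20 (SE 0.40, adjusted p = 2.11e-05), and its 2 Myelo-4 values rest on 9 and 1 UMIs. Slbp kept 41.8 and 32.1 CPM in Myelo-4 against 198 and 193 CPM in Myelo-1 (-2.17 ± 0.37, adjusted p = 7.63e-06). Pola1, the catalytic subunit of polymerase alpha primase, was not called (0.70 ± 0.61) on 8 UMIs. T and NK markers in Myelo-4 summed to 146 and 154 CPM with 2 of 4 detected and Cd3e and Trbc2 at 0, and in Myelo-1 to 1112 and 1061 CPM with the same 2 at 0. Nkg7 made up most of both sums, at 125 and 122 CPM in Myelo-4 and 1112 and 1058 CPM in Myelo-1. The T-cell receptor subunit Cd3d went the other way, at 20.9 and 32.1 CPM (4 and 5 UMIs) in Myelo-4, its highest level in any cluster, against 0.826 and 2.51 CPM in Myelo-1. The part of T or NK cells and of free RNA in values this low was not tested.

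The drift in composition was visible in ratios of genes within a cluster, in which the cluster's total cancels. The 4 ratios followed here were chosen after the values were seen and carry no test. Because genes are captured unequally, only the course of a ratio across clusters is read. UMIs of Rrm2 per UMI of Rrm1 were 0.754 and 0.830 in HSCP-2, 1.03 and 0.916 in Multi-Lin and 2.19 and 2.27 in Gran-1. Gran-2 had 3.53 and 3.41, and the ratio was 3.99 and 3.58 in Myelo-1 and 4.71 and 5.08 in Myelo-2, so that each cluster of this series lay above the preceding ones in both libraries. Myelo-3 stood at 4.05 and 3.92, and on the monocytic side Mono at 1.90 and 1.91.

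From Multi-Lin on, Slbp per Mcm6 also rose. It went from 0.707 and 0.767 in Multi-Lin through 0.882 and 0.953 in Gran-1 and 1.88 and 1.87 in Myelo-1 to 3.30 and 3.39 in Myelo-2. The step before went the other way. From HSCP-2 to Multi-Lin Mcm6 rose by 0.62 (log2) and Slbp by 0.45, so this ratio was lower in Multi-Lin in both libraries. Tyms per Mcm2 was 1.30 and 1.46 in Multi-Lin and 3.60 and 4.54 in Myelo-2. Rrm2 per Ung was 3.53 and 3.46 in Gran-1 and 59.8 and 67.0 in Myelo-2, where Ung had few UMIs.

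By role, the helicase held 16.1% and 16.6% of the 37 genes' UMIs in the Myelo class, 22.2% and 21.5% in the Gran class and 25.5% and 25.5% in the early class. Nucleotide supply held 21.3% and 20.5% in the Myelo class, 13.8% and 14.1% in the Gran class and 10.1% and 10.3% in the early class. Among these 3 classes the libraries of a class lay closer to each other than to those of the other classes in both measures. The monocytic class lay between the Gran and early classes, with 24.1% and 23.0% for the helicase and 12.0% and 12.7% for nucleotide supply. Its male helicase share was nearer to the female share of the Gran class than to its own female share.

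**Figure D3:**
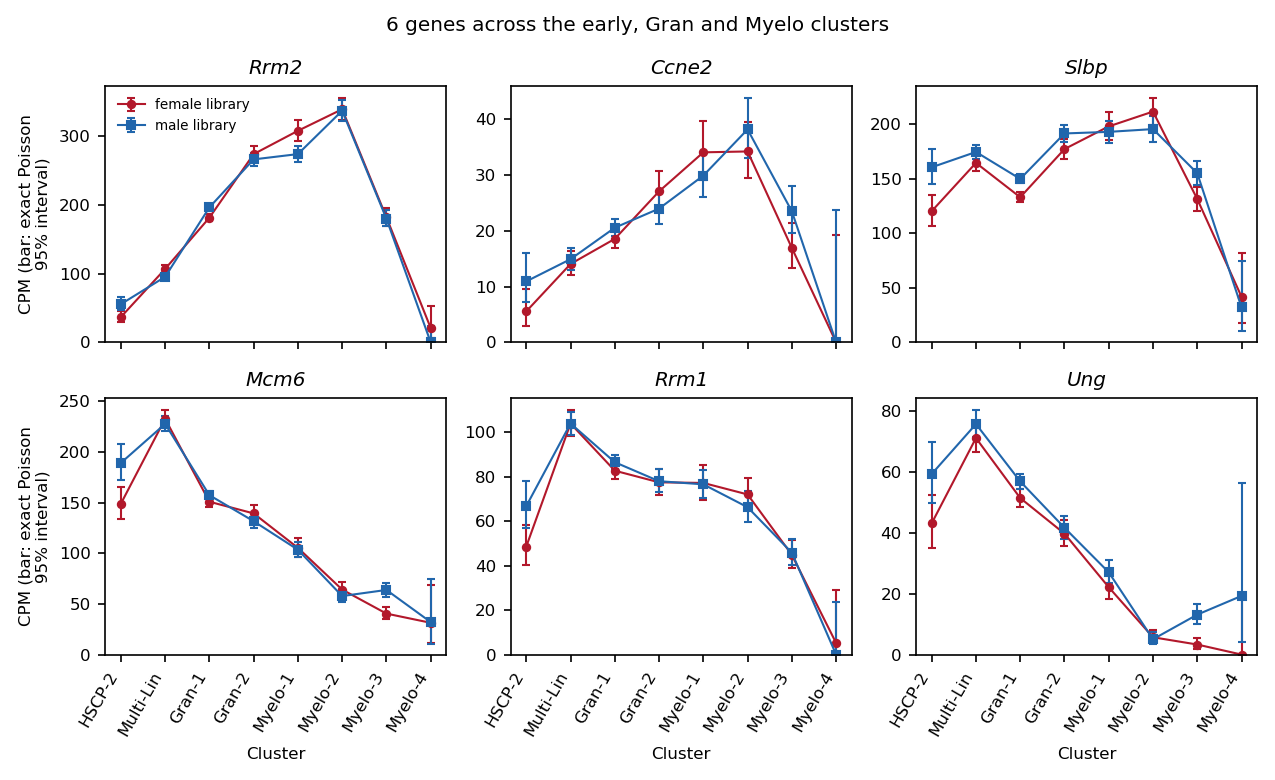
Plain CPM (vertical axes, each from 0) of 6 genes in the early, Gran and Myelo clusters with 59 cells or more (horizontal axes), a line for each library and exact Poisson 95% intervals for counting error only. Rrm2 and Ccne2 peak in Myelo-2 in both libraries, Mcm6, Rrm1 and Ung peak in Multi-Lin, and all except Ung in the male library are lowest in Myelo-4.

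Among the 13 clusters of 100 cells or more, 8 genes had their highest plain CPM in the same cluster in both libraries. Rrm2 (339 and 337 CPM) and Ccne2 (34.2 and 38.2 CPM) peaked in Myelo-2. Cdc45 (48.8 and 52.0 CPM) and Gmnn (169 and 172 CPM) peaked in cMoP, and Rfc2 (312 and 354 CPM), Prim1, Chaf1b and Ubr7 in Meg. For the other 29 genes the top cluster differed between the libraries. The span from the lowest to the highest of these clusters was widest for Ung, 21.6-fold and 18.5-fold, and 9.25-fold and 6.08-fold for Rrm2. It was narrowest for Usp1, a deubiquitinase of Pcna and FANCD2, at 1.75-fold and 1.82-fold.

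**Figure D4:**
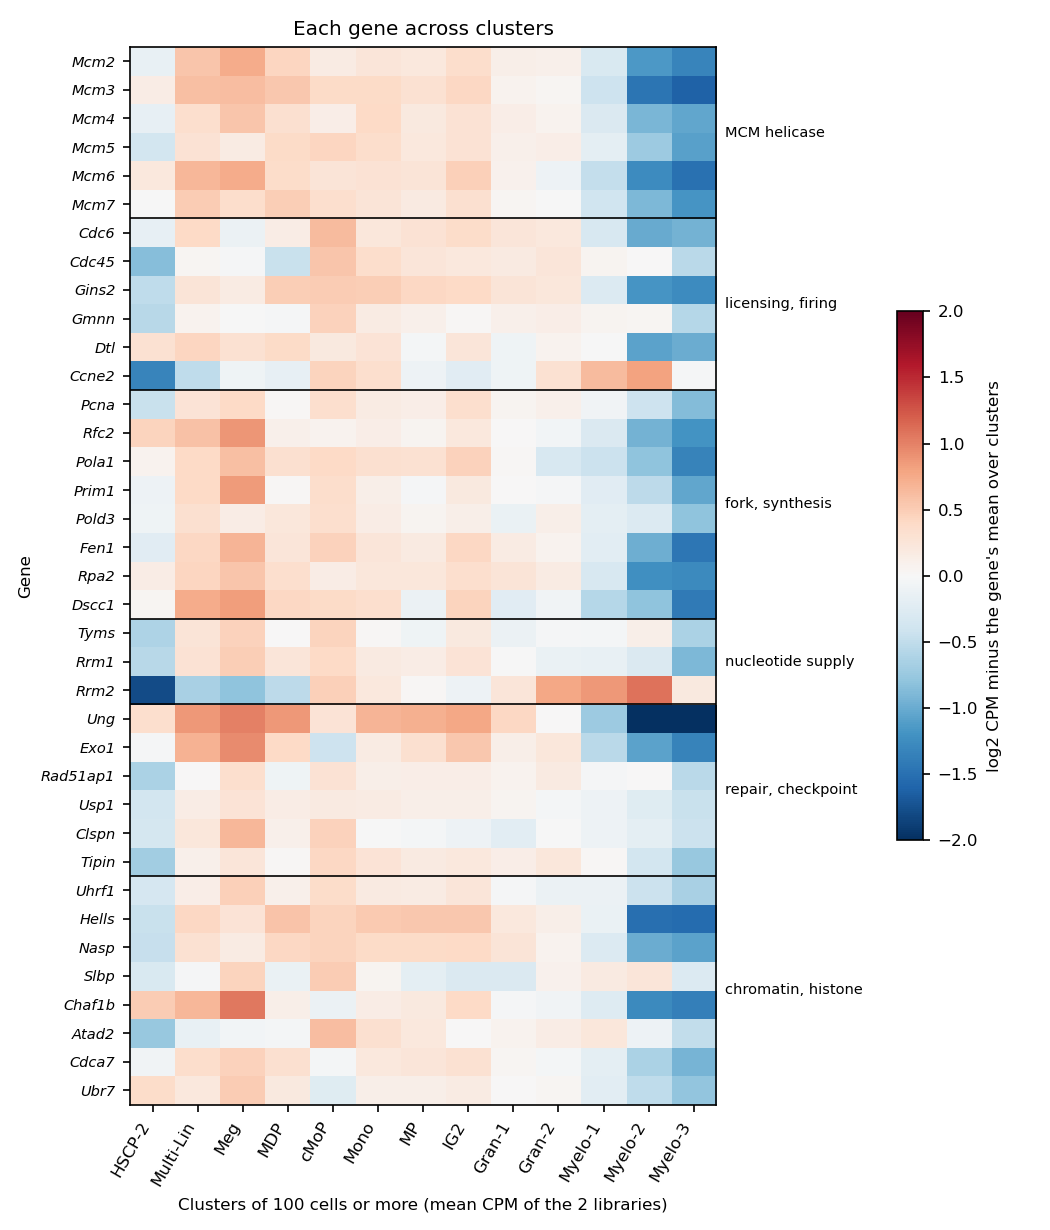
Colour shows log2 CPM (mean CPM of the 2 libraries) of each gene minus its mean over the 13 clusters of 100 cells or more, with genes in rows by role and clusters in columns. Most rows turn blue in Myelo-2 and Myelo-3, while Rrm2 and Ccne2 are darkest red in Myelo-2 and blue in HSCP-2.

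Over the 34 sums, the log2 CPM of each of the 37 genes was set against that of the other members summed. The Pearson correlation ranged from 0.353 (Pola1) to 0.967 (Mcm5), with Rrm2 at 0.670 and Ccne2 at 0.701. The 34 sums share 2 libraries and differ widely in depth, and the values are a description. The 2218 other genes with a mean of 50 CPM or more were set against all 37 genes summed. The 5 most alike were Dtymk (0.962), Dut (0.962), Hat1 (0.956), Siva1 (0.955) and Lsm2 (0.955).

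Cells, rather than sums, were scored after each was thinned once to 4000 UMIs. A cell was called high where 16 or more of these were of the 37 genes, the 75th percentile, which with ties held 27.6% of all cells. Between 11.5% and 12.1% of the cells of the Gran class lay near this limit, so high cells are the upper range of a gradient and not a type. With 2 libraries an exact permutation test cannot give a p below 0.5, and no test was made of these shares.

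High cells made up 11.8% (95% exact interval 9.86 to 14.0) and 12.8% (11.05 to 14.8) of the Myelo class. They made up 25.8% (23.3 to 28.4) and 27.1% (25.2 to 29.0) of the Gran class, and the monocytic class held 37.4% and 37.01%. The early class held 30.5% and 36.2%, with a gap between libraries larger than in the other classes. Among clusters the share was 37.9% and 40.2% in Multi-Lin and 12.1% and 21.7% in HSCP-2. It was 23.4% and 27.0% in Gran-1, 31.3% and 27.3% in Gran-2, 22.2% and 21.1% in Myelo-1, 14.7% and 13.1% in Myelo-2 and 5.63% and 7.56% in Myelo-3. In Myelo-4 0 of 31 and 0 of 28 cells were high. A floor of 3 cells, which is not the exact interval, corresponds to shares of 9.68% and 10.7%. In Meg 31 of 86 female and 51 of 85 male cells were high. Free RNA of other cells adds to such scores, and its part was not tested.

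Cells high for 26 G2/M genes, at 23 or more of 4000 UMIs, followed another course. They made up 15.3% and 14.5% of Gran-1, 42.8% and 46.0% of Myelo-1, 81.2% and 76.9% of Myelo-2 and 56.6% and 50.9% of Myelo-3, with 0 of 31 and 0 of 28 cells in Myelo-4. Cells high for both gene sets were 2.03% and 2.47% of all cells. In the fit, all 26 G2/M genes were higher in the Myelo class than in the Gran class, with a median log2 fold change of 1.07. Among all genes, 33.5% were called higher and 32.5% lower. The G2/M genes included Ube2c, a ubiquitin-conjugating enzyme that works with the anaphase-promoting complex (1.71), and Birc5, survivin (1.20). Of 17 genes of the E2F and cyclin list, 10 were higher and 3 lower in the Myelo class, with cyclin A2 (Ccna2) at 1.28 and Cdk2 at 0.69. Of all 87 other replication genes tested 26 were higher and 30 lower, close to the shares over all genes. Among them the histone chaperone Asf1b rose by 1.56 while the nucleolar chaperone Npm1 fell by 1.23.

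**Figure D5:**
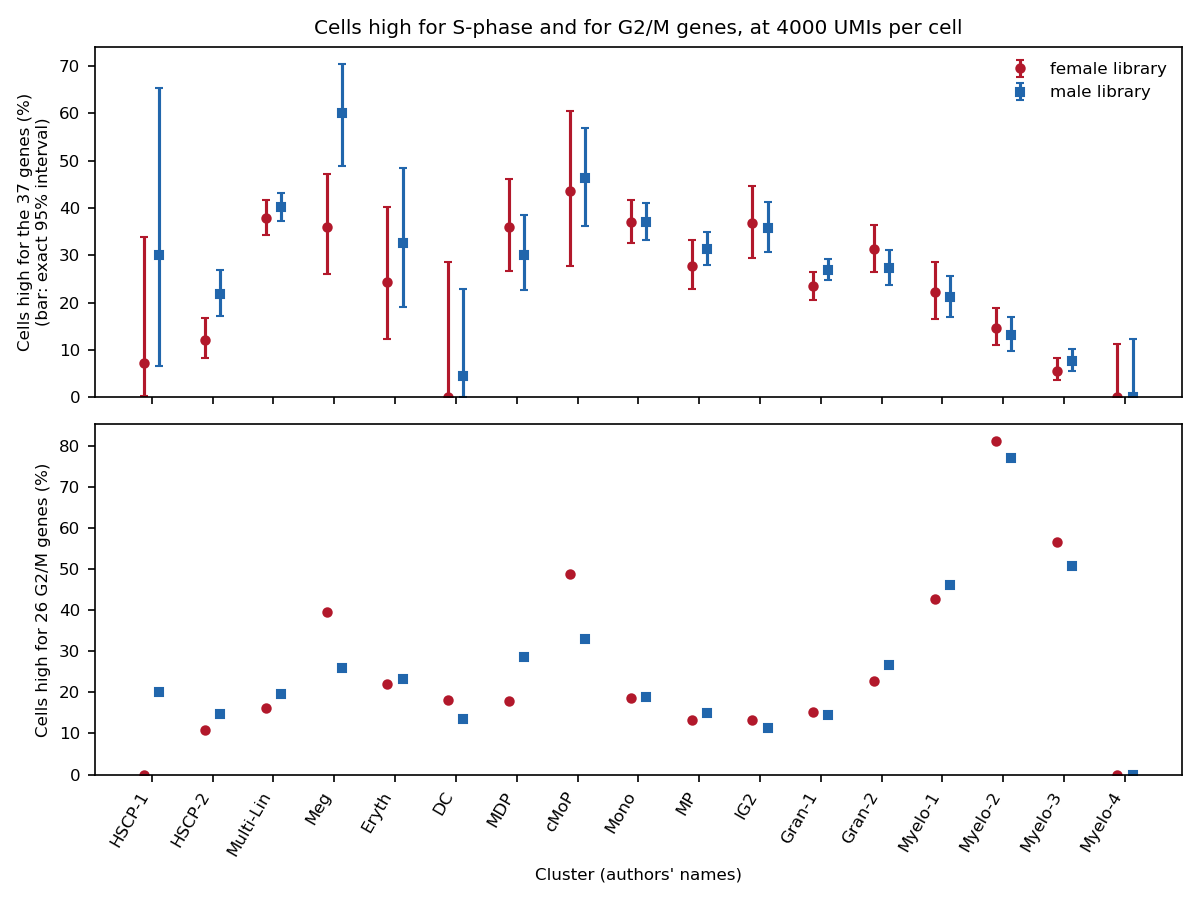
Percentage of cells (vertical axes) in each cluster (horizontal axis) that were high for the 37 genes (upper panel, exact 95% intervals) and for 26 G2/M genes (lower panel), for the female and male library at 4000 UMIs per cell. The upper share is lower from Gran-2 to Myelo-4, while the lower share reaches 81.2% and 76.9% in Myelo-2.

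The antibody tags, which the gene scores did not use, were set beside the high cells within single clusters. In Myelo-1 the median Ly-6G tag count, a surface protein of maturing neutrophils, was 204 and 165 in high cells and 352 and 405.5 in other cells. CD11b, an integrin of myeloid cells, had medians of 3274 and 1868 in high cells and 5047 and 2810 in other cells of Myelo-1. CD117, the stem cell factor receptor used for the enrichment, had 172 and 133 in high cells and 283 and 200 in other cells. All 3 tags were thus lower in high cells of Myelo-1 in both libraries, while the median UMI count was also lower, at 21904 and 18671 in high cells and 25072 and 20399 in other cells. Ly-6C, a protein of monocytes and immature granulocytic cells, had medians of 21557 and 15021 in high cells and 27937 and 15230 in other cells.

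In Myelo-2 Ly-6G was 934 and 461 in high cells and 1865.5 and 900 in other cells. In Gran-1 the tags differed little, with CD117 at 291 and 170 in high cells and 300 and 174 in other cells. In Multi-Lin CD117 was 374.5 and 232 in high cells and 341 and 192 in other cells, and median UMIs were also higher in high cells, at 18235 and 14916.5, against 16046.5 and 12515 in other cells. Tag counts were not scaled for depth, and the antibody library was pooled from both sexes. These medians are over cells of the same 2 libraries and were not tested.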

How the data were processed

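UMI counts per gene and cell, antibody tag counts per cell and cluster names were deposited by the authors as text. Per the submitters' processing notes they used Cell Ranger 2.1.0 and mm10. The sources used here do not state how cells were called or clustered or whether doublets were removed, and no doublet caller was run. A deposited table of log-transformed antibody values was not used. All 11132 deposited cells were kept.

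The deposited counts were summed per library and class (4 sums a fit, 1 residual degree of freedom) or per library and cluster (34 sums, 16 residual degrees of freedom). The test was that of edgeR 4.0.16 (R 4.3.3), the quasi-likelihood F test with TMM, filterByExpr and the library as covariate, with Benjamini-Hochberg adjustment over all genes tested and a threshold of 0.05. The groups of a comparison come from the same 2 libraries, so the library pairs them. The libraries differ in sex, and nothing says how many animals each holds. Each p-value rests only on a spread between these sums that is moderated across the genes tested. With 1 residual degree of freedom, a gene's own gap between the libraries counts for little in a class fit. The p-values and SEs there do not measure how well a single gene repeats between libraries. Each SE was derived from the F statistic, as the size of the log2 fold change divided by its square root. The procedure was tested on simulated data. Alternatives were DESeq2 1.42.0, RLE scaling, no low-count filter, no library term, cells thinned to 4000 UMIs, removal of the 572 cells in the top 5% of UMIs or of shared barcodes, other cluster weightings and other cell scores. Intervals are exact 95% ones for counting error only. Python 3.11.15 with scipy 1.17.1 was also used.

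The members and gene lists were chosen with earlier results of these data known, and no list carries a test of its own. All 37 genes may be named. Of each context list only counts and at most 4 genes of highest mean CPM are given, and of other genes the 5 most alike in profile.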

Additional observations from a re-analysis of the deposited data

How the results depend on the processing

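Of 187 called gene differences, 86 were called in the same direction under every setting that gave calls, and 16 took the opposite sign under at least 1. The cause was not tested. DESeq2 kept 119 calls, RLE scaling 163, thinned cells 136, no library term (no replicate block) 127, no low-count filter 176, cells without the top 5% of UMIs 183 and cells without shared barcodes 184, and none of these turned a call. For the Gran class against the early class, 12 genes were higher without the replicate block. Lower genes there numbered 5 with DESeq2, 4 with thinned cells, 1 in the fit over 34 sums and 2 in that fit without HSCP-1. For the Gran class against the monocytic class, lower genes numbered 9 with DESeq2, 8 without the replicate block, 9 with thinned cells and 11 in the fit over 34 sums. For the Myelo class against the Gran class, higher genes numbered 6 with DESeq2, 7 with no filter, 0 in the fit over 34 sums, 7 with Myelo-1 only and 3 with Myelo-3 only, and lower genes 11, 26 and 10 with DESeq2, the fit over 34 sums and Myelo-1 only. For Gran-1 against Multi-Lin, higher genes numbered 4 with DESeq2 and 4 without the replicate block, and lower genes 6 without the block and 7 with thinned cells. For Gran-2 against Gran-1, higher genes numbered 4, 5, 3 and 4 with DESeq2, RLE scaling, no replicate block and thinned cells, and lower genes 2, 3 and 0 with the first 3 of these. For Myelo-1 against Gran-2, 1 gene was higher without the replicate block, and lower genes numbered 4, 6, 2 and 1 with DESeq2, RLE scaling, no replicate block and thinned cells. For Myelo-4 against Myelo-1, DESeq2 gave 14 lower genes.

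In the fit over 34 sums the signs turned for Mcm3 (0.45, and 0.039 without HSCP-1), Mcm7 (0.33, and 0.13 without HSCP-1), Dtl (0.10) and Ung (0.016) in the Gran class against the early class, and for Ccne2 (0.012) against the monocytic class. For the Myelo class against the Gran class they turned for Cdc45 (-0.52), Gmnn (-0.74), Ccne2 (-1.92), Pold3 (-0.29), Tyms (-0.26), Rrm2 (-0.46), Rad51ap1 (-0.72), Usp1 (-0.47), Clspn (-0.31), Uhrf1 (-0.80) and Atad2 (-0.39). That fit without Myelo-4, chosen after the data were seen, turned 0 of 29. With Myelo-3 only, also chosen afterwards, Cdc45 (-0.092), Gmnn (-0.051), Pold3 (-0.10) and Rad51ap1 (-0.0024) turned. The mean share of high cells, by unthinned UMI share, by number of genes detected and without the Mcm genes, was 22.3%, 28.6% and 31.2% in the Gran class, 35.6%, 38.4% and 39.2% in the monocytic class and 9.34%, 10.7% and 18.7% in the Myelo class. In the early class it was 32.6%, 33.1% and 31.7%. Without the Mcm genes the Gran class (30.2% and 32.3%) and the early class (29.7% and 33.7%) no longer separated. On that score Myelo-1 (29.9% and 29.3%) also lay near Gran-1 (28.0% and 32.1%).

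With a library left out no residual degrees of freedom remain in a class comparison, so single-library medians are values with no test. They ranged from 0.09 to 0.14 for the Gran class against the early class, -0.13 to -0.11 against the monocytic class, 0.51 to 0.98 for Multi-Lin against HSCP-2 and -2.57 to -2.42 for Myelo-4 against Myelo-1. In the other comparisons they ranged between -0.11 and 0.10. The Myelo-4 values rest on 157 UMIs, and genes of a few UMIs there cannot be ranked.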
